A study of Mus musculus with 5 samples.

Results

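The cells described here are the Anxa1-positive cells of a mouse small intestinal organoid library of genotype Lkb1 -/-, the library whose title carries the mark Bud. A cell was counted as Anxa1-positive when its well held at least 1 unique molecular identifier (UMI) of Anxa1, and wells under 3000 UMIs were left out. By that rule 123 of the 262 kept Bud wells were Anxa1-positive, 139 held no Anxa1 UMI, and the whole series held 1480 kept wells. The cells were chosen by their Anxa1 UMIs, so the Anxa1 values are given as a description only. A well is taken as 1 cell, since single cells were sorted into the plates.

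Organoids are cultures in which gut epithelium grows as small hollow bodies in a gel. The series held 5 libraries of 1 plate each: Lkb1 -/- with the mark Bud, Lkb1 -/- with the mark Cys, Lkb1 +/- (het), WT (wild type) from fetal intestine, and WT from small intestine. Per the labels' protocols, small intestinal organoids grew in medium with Egf, R-spondin1 and Noggin, were dissociated with TrypLE and were sorted into 384-well plates for SORT-seq, which tags each transcript near its 3' end. The labels explain neither Bud nor Cys and name no clone, editing method, animal, age or passage, so the Bud library is 1 culture of unknown history and there is no replicate of it.

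Lkb1 (gene symbol Stk11) encodes a kinase that activates AMPK and related kinases. Annexin A1, the product of Anxa1, is a calcium-dependent phospholipid-binding protein that is known from inflammation, where it is induced by glucocorticoids and signals through formyl peptide receptors. In gut epithelium Anxa1 is known as a gene of a fetal-like, regenerative state that adult cells can enter after injury, together with Ly6a, Clu, Il33 and other annexins. Anxa1 lies on chromosome 19 from 20373428 to 20390944 on the minus strand in build GRCm38 (GENCODE annotation M21). S100a6, Lgals3 and Fabp5, which served beside Anxa1 as markers of these cells, lie on chromosome 3 (90612882 to 90624181), chromosome 14 (47367751 to 47386160) and chromosome 3 (10012548 to 10016607). All are protein-coding genes on the plus strand.

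The 5 libraries were of similar depth, with a median of 11247.5 (Cys) to 15310 (WT) UMIs and 3632.5 to 4543 genes per kept well, and 2.56 to 3.31 reads per UMI. Between 15 (fetal) and 133 (WT) of 384 wells per plate fell under 3000 UMIs, and 122 did in Bud. Wells with over 2% of their UMIs from Kcnq1ot1, a long nuclear RNA taken here as a mark of wells in poor condition, were most frequent in Bud at 10.3% and ranged from 0.542% (fetal) to 6.03% (het) elsewhere. All plates use the same 384 well numbers, so well numbers do not identify cells across libraries. With 1 library per group no p-value is given for differences within Bud. Brackets hold 95% intervals that cover counting error only.

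Anxa1 was a sparse transcript in Bud. It gave 472 UMIs, and 46.9% of kept wells (40.8 to 53.2%) had at least 1 of them. Of the 123 positive cells, 53 had 1 UMI, 19 had 2, 21 had 3, 10 had 4 and 20 had 5 or more. The level was therefore uneven: well 81, with 117 Anxa1 UMIs among 48855 UMIs, held 24.8% of all Anxa1 in the library, and well 284, with 42 among 10513, held another 8.90%. The next well held 13. Over positive cells the Anxa1 level per well ran from 26.1 to 3995 CPM (UMIs of the gene scaled to a common total per well) with a median of 119. Each Anxa1 UMI rested on 2.42 reads on average, against 3.35 for all genes in the same cells, and 24 of the 53 cells with 1 Anxa1 UMI rested on a single read.

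Detection moved with depth. Anxa1-positive cells had a median of 18339 UMIs and 4753 genes, against 10622 UMIs and 3533 genes in Anxa1-zero cells. By tertile of UMIs per well, 26.1% of the lowest (3079 to 9693 UMIs), 46.0% of the middle (9758 to 18397) and 69.0% of the highest (18657 to 49761) were positive. The Anxa1 level itself was 69.4, 113 and 128 CPM in these tertiles. When every kept well was thinned to 3000 UMIs, 47 wells (17.9%, 13.5 to 23.1%) still held an Anxa1 UMI. A count of 0 at these depths does not show that Anxa1 was absent, so the comparison is between cells with detected and undetected Anxa1.

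The same thinning placed Bud between the other libraries. After thinning, 88.9% of Cys wells (84.9 to 92.2%), 3.90% of het wells (1.96 to 6.87%), 97.8% of fetal wells (95.8 to 99.1%) and 2.39% of WT wells (0.882 to 5.13%) held an Anxa1 UMI. Without thinning the shares were 96.8% in Cys, 7.45% in het, 100% in fetal and 8.76% in WT, where the median depth of 15310 UMIs was close to the 14208 of Bud. The Bud share lay above the counting intervals of het and WT and below those of Cys and fetal, both before and after thinning. Over all kept cells Anxa1 stood at 116 CPM in Bud (105 to 127), against 1079 in Cys, 11.5 in het, 1992 in fetal and 8.39 in WT. Within Bud, 10 of the 122 dropped wells also held Anxa1, 16 UMIs in all.

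**Figure D1:**
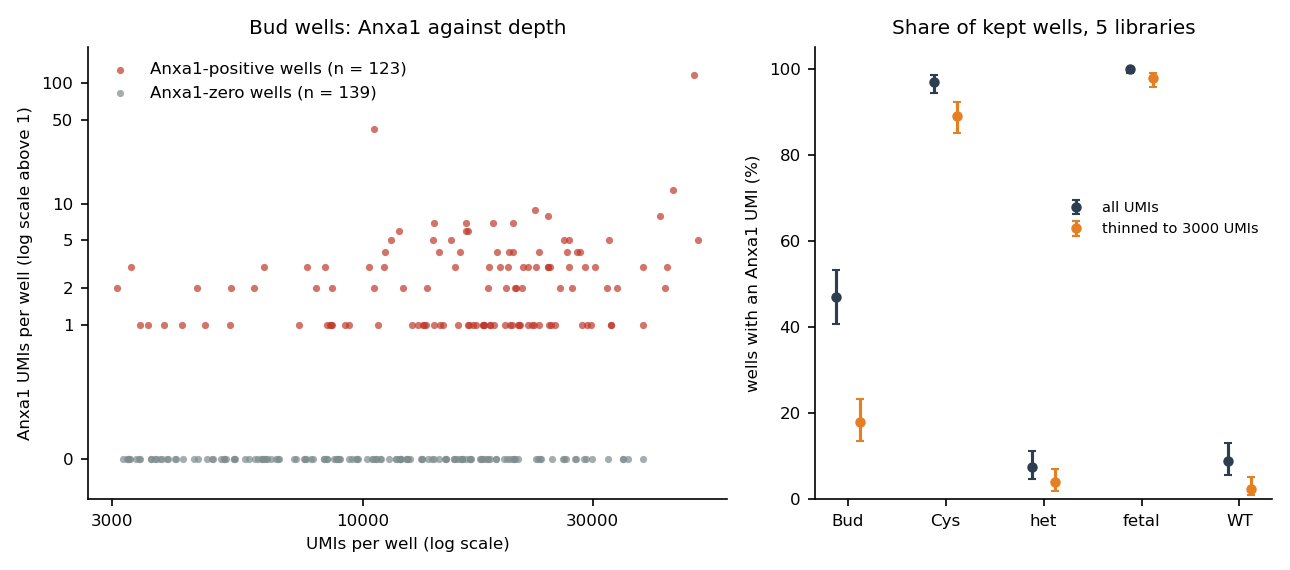
Left, Anxa1 UMIs (vertical axis, log scale above 1) against all UMIs of a well (horizontal axis, log scale) for the 123 Anxa1-positive and 139 Anxa1-zero Bud wells, 1 point per well. Right, percent of kept wells with an Anxa1 UMI in the 5 libraries, before and after thinning each well to 3000 UMIs, with exact binomial 95% intervals. Positive wells occur at every depth but are more frequent among deep wells, and the thinned Bud share of 17.9% stands between 2.39% in WT and 88.9% in Cys.

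To ask which genes accompanied Anxa1, UMIs were summed over the 123 positive and the 139 zero cells of Bud and scaled to CPM. A gene counted as higher or lower when its ratio of summed CPM reached 1.5 in that direction with a counting interval off 1. Of 9718 genes with at least 20 UMIs, 310 were higher in Anxa1-positive cells (3.19% of genes) and 270 were lower (2.78%). The median log2 ratio over all genes, with 10 CPM added to both values, was 0.02. Because single wells can carry a gene, the counts were repeated without the richest well of each gene, an alternative chosen after seeing the data, which left 217 higher (2.27%) and 225 lower (2.36%) of 9545 genes. With every well thinned to 3000 UMIs, 220 of 6049 genes were higher (3.64%) and 152 lower (2.51%), but only 47 and 72 of them were among the genes called without thinning.

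The marker genes that accompany Anxa1 were partly shared by the positive cells. S100a6, a small calcium-binding protein, stood at 462 CPM in positive cells and 269 CPM in zero cells, a ratio of 1.72 (1.54 to 1.92). It ranged from 0 to 3519 CPM per positive cell with a median of 350, and from 0 to 2144 with a median of 169 per zero cell, so the classes overlapped throughout. S100a6 was detected in 61.0% of positive and 48.9% of zero cells after thinning, and in 95.1% and 71.9% without it. Lgals3, which encodes the galactoside-binding lectin galectin-3, stood at 105 CPM in positive and 63.2 CPM in zero cells, a ratio of 1.65 (1.32 to 2.09). It was found after thinning in 21.95% of positive and 10.8% of zero cells. Fabp5, a fatty acid-binding protein, stood at 137 CPM in positive and 101 CPM in zero cells. Its ratio of 1.35 (1.12 to 1.64) did not reach the fold threshold. Within depth tertiles S100a6 kept ratios of 2.74, 1.73 and 1.71 from shallow to deep, Lgals3 4.20, 1.20 and 1.41, and Fabp5 2.32, 0.938 and 1.32.

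The positive cells also differed among themselves along their own Anxa1 count. S100a6 stood at 269 CPM in cells with 0 Anxa1 UMIs, 358 CPM in cells with 1, 485 CPM in cells with 2 to 4 and 610 CPM (542 to 684) in cells with 5 or more. Lgals3 followed the same order at 63.2, 76.1, 99.3 and 168 CPM. Fabp5 did not follow it until the last grade, with 101, 114, 112 and 230 CPM. The cells just inside the rule, the 53 with 1 UMI, were thus nearer to the zero cells than the 20 with 5 or more were, and their median depth was 17159 UMIs, against 10622 in the zero cells just outside it. The annexins Anxa2 and Anxa3 had the same order, Anxa2 at 222, 326, 368 and 603 CPM and Anxa3 at 16.1, 21.3, 41.4 and 112 CPM. Without wells 81 and 284, added as an alternative after seeing the data, the top grade held 523 CPM of S100a6, 149 of Lgals3, 232 of Fabp5, 485 of Anxa2 and 78.0 of Anxa3. These levels rest on few wells: 3 of the 20 wells held 54 of the 81 Lgals3 UMIs, 10 held none, and well 128, with 5 Anxa1 UMIs, held 37 of the 111 Fabp5 UMIs and 19 of Lgals3. Without the 3 richest wells of each gene, also chosen after seeing the data, the top grade held 457 CPM of S100a6, 70.6 of Lgals3 and 133 of Fabp5, so that S100a6 and Lgals3 lay below the untrimmed cells with 2 to 4 UMIs. Ly6a in the top grade went from 74.7 CPM to 30.7 CPM without wells 81 and 284, and Il1rn from 45.6 to 23.6 CPM. Without its own 3 richest wells Ly6a held 4.93 CPM there, from 2 UMIs. It stood at 3.45 CPM in zero cells and 15.7 CPM in cells with 1 Anxa1 UMI. Il1rn without its 3 richest wells held 17.0 CPM.

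**Figure D2:**
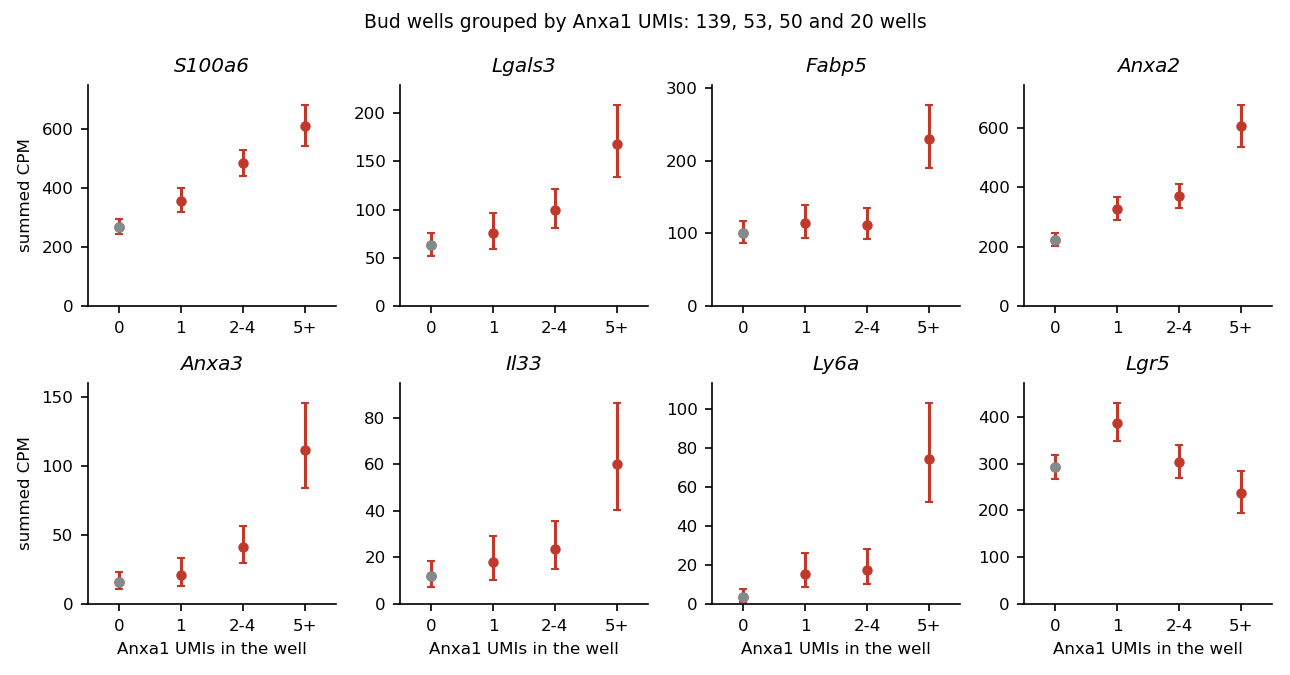
Summed CPM (vertical axes, from 0) of 8 genes in Bud wells with 0, 1, 2 to 4 and 5 or more Anxa1 UMIs (horizontal axes), with exact Poisson 95% intervals. S100a6, Lgals3, Anxa2 and Anxa3 are highest in the 20 wells with 5 or more Anxa1 UMIs, whereas Lgr5 is lowest there at 236 CPM, against 292 CPM in wells with none.

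Many genes of fetal and regenerative epithelium were higher in Anxa1-positive cells. Of 29 genes on the list, which holds S100a6 and Lgals3 but not Anxa1, 18 were measured and 11 were higher, with none lower, against 3.19% of all genes higher. Their median log2 ratio was 0.70, against 0.02 over all genes. Another 6, among them Msln, Gja1 and Spp1, had no UMI in any kept Bud cell. The summed level of the list was 6363 CPM in positive cells and 4740 CPM in zero cells, and it was 5576, 5986 and 8579 CPM in cells with 1, 2 to 4 and 5 or more Anxa1 UMIs. The minimum of 20 UMIs was taken over both classes together, so a rare gene could pass it through the positive cells alone. Il1rn did, with 56 UMIs in positive and 2 in zero cells. With a minimum of 1 UMI per gene the list median was 0.42.

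Secreted and receptor genes of that list came from few cells. Il1rn, the antagonist of the interleukin-1 receptor, had 56 UMIs in 23 positive cells (23.9 CPM) and 2 UMIs in 2 zero cells (1.15 CPM), a ratio of 20.8 (5.50 to 176). Ly6a, the surface protein Sca-1 that marks injured and fetal epithelium, had 67 UMIs in 22 positive cells (28.6 CPM) and 6 UMIs in 6 zero cells (3.45 CPM), a ratio of 8.30 (3.62 to 23.4). Well 81 alone held 31.5% of Ly6a. Plaur, the urokinase receptor, stood at 21.3 CPM in positive and 4.60 CPM in zero cells. Areg, a ligand of the EGF receptor, stood at 36.7 CPM in positive and 11.5 CPM in zero cells, in only 21 and 9 cells. Il33, an alarm cytokine of epithelium, stood at 29.0 CPM in positive and 12.1 CPM in zero cells, a ratio of 2.41 (1.46 to 4.13), in 30 and 10 cells. Each of these 5 genes was undetected in most positive cells.

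Annexins and a membrane protein completed the list. Anxa2 stood at 400 CPM in positive and 222 CPM in zero cells, a ratio of 1.81 (1.60 to 2.04), and was seen after thinning in 56.1% of positive and 31.7% of zero cells. Anxa3 stood at 48.2 CPM in positive and 16.1 CPM in zero cells, a ratio of 2.998 (1.97 to 4.71). Anxa5 stood at 14.5 and 4.60 CPM in positive and zero cells. Emp1, an epithelial membrane protein, stood at 64.9 CPM in positive and 41.4 CPM in zero cells. The 7 members that were measured but not called higher were Clu, Fabp5, Cldn4, Krt7, Krt18, Krt8 and Tmsb4x, with ratios from 1.09 (Krt7) to 1.54 (Clu). Clu, which encodes clusterin and marks revival stem cells after injury, stood at only 13.2 CPM in positive and 8.62 CPM in zero cells, with an interval of the ratio that includes 1.

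The direction of these genes was then read within depth tertiles. Of the 11 higher genes of the list, 10 were above the zero cells in all 3 tertiles, and the exception was Areg, with 1 UMI in positive and 8 UMIs in zero cells of the lowest tertile. The list sum was 7007, 7378 and 5934 CPM in positive cells of the lowest, middle and highest tertile, against 4645, 4900 and 4642 CPM in zero cells. Over all 310 higher genes, 208 (67.1%) lay above the zero cells in all 3 tertiles, a share that the selection of these genes favours and that was 13.6% over all genes measured. Few genes were called again within a single tertile, however: 21, 76 and 104 of the 310 from lowest to highest.

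**Figure D3:**
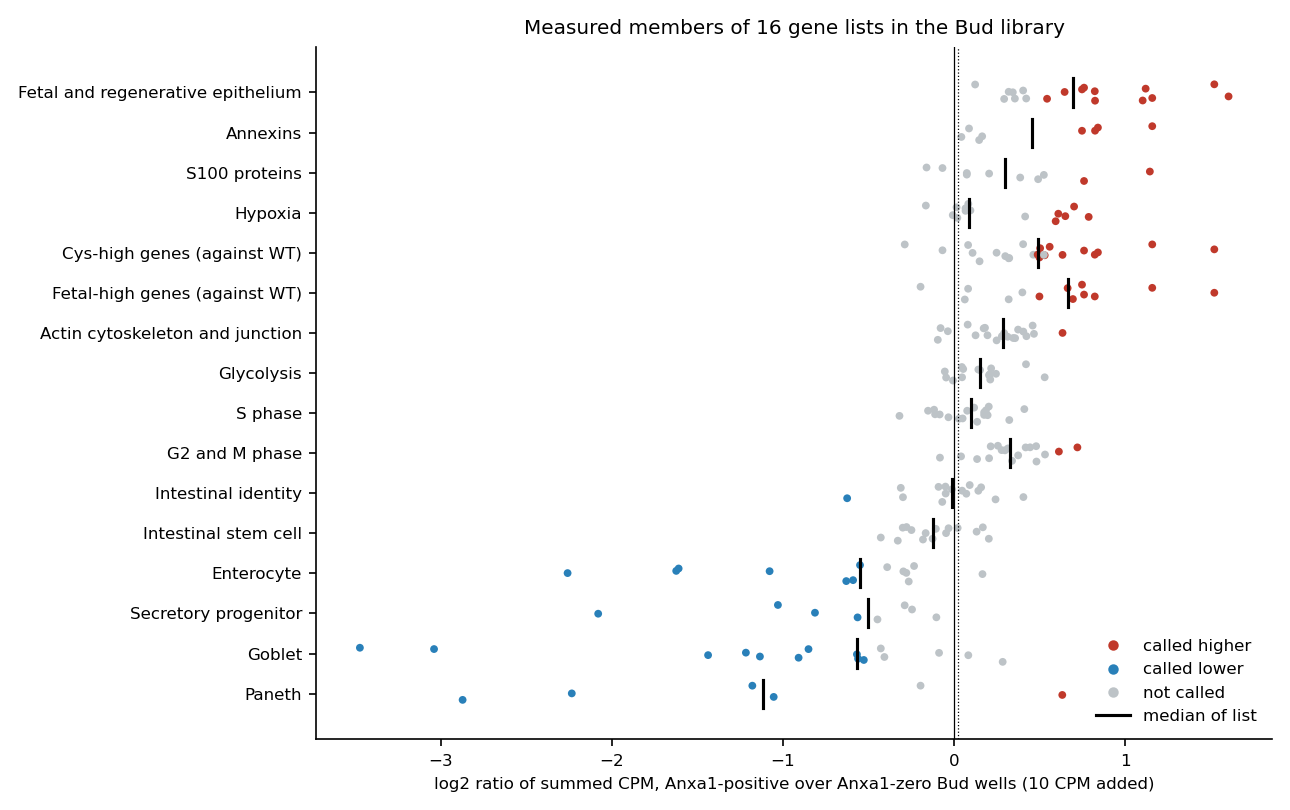
Log2 ratio of summed CPM, Anxa1-positive over Anxa1-zero Bud wells with 10 CPM added (horizontal axis), for each measured gene of 16 lists (rows), with the median of each list as a black bar and the median over all genes as a dotted line. The fetal and regenerative list lies to the right with 11 of 18 genes called higher, and goblet and Paneth genes lie to the left with 10 of 15 and 4 of 6 called lower. Over all genes 3.19% were called higher and 2.78% lower.

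The other annexins did not all follow Anxa1. Of 8 measured relatives 4 were higher, Anxa2, Anxa3, Anxa5 and Anxa10, and none was lower, against 3.19% of all genes higher. Anxa10, an annexin known from stomach epithelium, stood at 14.1 CPM in positive and 3.45 CPM in zero cells, with 25.6% of its UMIs in a single well. The abundant Anxa4 stood at 934 CPM in positive and 878 CPM in zero cells, and Anxa7, Anxa11 and Anxa13 also had ratios between 1.03 and 1.13. Of 10 measured S100 genes 2 were higher, S100a6 and S100g (3.19% over all genes). S100g, which encodes the calcium carrier calbindin-D9k of absorptive cells, owed 60.2% of its UMIs to a single well and lost its difference without it, at a log2 ratio of -0.0023. Among 6 measured partners of annexin A1 signalling, Pla2g4a, the cytosolic phospholipase A2, stood at 93.1 CPM in positive and 57.5 CPM in zero cells. Fkbp5, a glucocorticoid-induced chaperone, stood at 22.6 CPM in positive and 12.1 CPM in zero cells, whereas Tsc22d3, another glucocorticoid target, stood at 18.8 and 22.4 CPM in positive and zero cells. The receptor genes Fpr1 and Fpr3 had no UMI in Bud.

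Hypoxia genes were split. Of 14 measured, 5 were higher and none lower, against 3.19% of all genes higher, with a list median of 0.09. The 5 were Ero1l, an oxidase of the endoplasmic reticulum, at 594 CPM in positive and 340 CPM in zero cells; Slc2a1, the glucose transporter GLUT1, at 81.5 and 50.0 CPM; Egln3, an oxygen-sensing hydroxylase, at 198 and 128 CPM; Ankrd37 at 58.9 and 33.9 CPM; and Adm, the peptide adrenomedullin, at 12.8 and 4.02 CPM. Vegfa, Ndrg1, Bnip3, Pdk1 and Higd1a had ratios between 0.881 and 1.06. None of 15 measured glycolysis genes and none of 18 oxidative phosphorylation genes was called in either direction.

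Genes of signalling outputs showed a few members each. Of 14 measured YAP/TAZ targets 3 were higher, against 3.19% of all genes. F3, which encodes tissue factor, stood at 27.7 CPM in positive and 10.9 CPM in zero cells. Ajuba stood at 14.1 and 6.90 CPM, and Ctgf at 9.82 and 4.02 CPM. Nuak2, which is both a YAP target and a kinase activated by LKB1, was lower at 11.5 CPM in positive and 20.1 CPM in zero cells. Of 13 ERK targets 3 were higher, Ier3, Etv5 and Egr1, and of 14 genes of dissociation stress 3, Egr1, Zfp36 and Hspa1b. The share over all genes was again 3.19%. Egr1 kept its call in 5 of 17 alternatives and Etv5 in 10. Egr1, an immediate early gene, stood at 64.9 CPM in positive and 43.1 CPM in zero cells, and Zfp36, which destabilises inflammatory mRNAs, at 63.6 and 37.4 CPM. The stress list as a whole summed to 4443 CPM in positive and 3953 CPM in zero cells, and its part in the differences of other lists was not tested. Of the kinases and partners of LKB1, 15 were measured and Nuak2 was the only one called, against 2.78% of all genes lower. Stk11 itself stood at 11.5 CPM in both classes, from 27 and 20 UMIs. A 3' tag says nothing of whether the transcript is intact, so it does not check the genotype.

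Of the 12 higher genes with the largest log2 ratios, with 10 CPM added, among those seen in at least 20% of positive cells, several belong to none of the lists. Tmem237, a membrane protein of the ciliary transition zone, stood at 63.2 CPM in positive and 21.8 CPM in zero cells, a ratio of 2.89 (2.01 to 4.25). Krt23, an epithelial keratin, stood at 95.2 CPM in positive and 37.9 CPM in zero cells. Klf6, a zinc finger transcription factor, stood at 130 CPM in positive and 54.6 CPM in zero cells, and Sat1, the enzyme that acetylates polyamines for export, at 215 and 111 CPM. The others were Anxa3, Rhof, Cdca5, Myl7, Nek2, Sp2, Nr4a1 and Aldoc, with ratios from 2.02 (Aldoc) to 3.31 (Sp2). All 12 lay above the zero cells in every depth tertile. Krt23 went with the Anxa1 grade, at 37.9, 66.0, 107 and 127 CPM, and Sat1 at 111, 134, 190 and 413 CPM, whereas Klf6 stood near 130 CPM in each positive grade (138, 126 and 122 CPM).

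No measured stem cell gene was called in either direction. The 15 measured genes of the intestinal stem cell list summed to 3708 CPM in positive and 3845 CPM in zero cells. Lgr5, the receptor that marks crypt base stem cells, stood at 321 CPM in positive and 292 CPM in zero cells, a ratio of 1.099 (0.981 to 1.23). Across positive grades it ran the other way from S100a6, at 387, 303 and 236 CPM for 1, 2 to 4 and 5 or more Anxa1 UMIs, and well 284 held none. Few cell cycle genes were called: none of 18 S phase genes was, and of 18 G2 and M genes Cenpf and Cdk1 were higher. Over all genes 3.19% were higher. Mki67, the proliferation marker, stood at 228 CPM in positive and 160 CPM in zero cells, a ratio of 1.42 (1.23 to 1.65). Cell cycle sums also went with depth, as the S phase list held 1843, 2541 and 3277 CPM in positive cells and 2034, 2625 and 3388 CPM in zero cells from the lowest to the highest tertile.

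Genes of differentiated secretory and absorptive cells were among those lower in positive cells. Of 15 measured goblet genes 10 were lower and none higher, with a list median of -0.57, against 2.78% of all genes lower. Of 6 Paneth genes 4 were lower, of 8 genes of secretory progenitors 4, and of 13 enterocyte genes 7. Tff3, a goblet cell peptide, stood at 563 CPM in positive and 1542 CPM in zero cells, and Spink4, a secreted protease inhibitor, at 154 and 349 CPM. Lyz1, the Paneth cell lysozyme, stood at 47.0 CPM in positive and 258 CPM in zero cells, Reg4, a lectin of secretory cells, at 23.1 and 169 CPM, and Neurog3, the factor that specifies enteroendocrine cells, at 38.8 and 197 CPM. The one Paneth gene that was higher, Pla2g2a, a secreted phospholipase, stood at 273 CPM in positive and 172 CPM in zero cells.

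Several of these values rested on single wells. Muc2, the goblet mucin, stood at 14.1 CPM in positive and 257 CPM in zero cells, but a single zero well held 83.4% of it, and after thinning it was found in 7.32% of positive and 6.47% of zero cells. A single well also held 93.9% of Zg16, 74.7% of Reg1, 66.4% of Ghrl, 62.7% of Apoa1 and 59.5% of Ang4. Without the richest well of each gene, Muc2 had a log2 ratio of -0.62 in place of -3.47, and Reg1, Itln1 and Ghrl changed sign to 0.15, 0.27 and 1.81. The 5 richest wells held 34.4% of all goblet UMIs and 29.8% of all Paneth UMIs.

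The direction differed between depth tertiles. In the lowest tertile the goblet list summed to 7233 CPM in positive and 11319 CPM in zero cells, but in the middle it was 1124 and 1004 CPM and in the highest 769 and 432 CPM. The Paneth list summed to 685 CPM in positive and 2366 CPM in zero cells of the lowest tertile, and was higher in the positive cells of the others, at 446 against 163 and 339 against 142 CPM. Enterocyte genes summed to 1397, 1383 and 1632 CPM in positive cells of the lowest, middle and highest tertile, against 898, 3203 and 1712 CPM in zero cells. Tff3, Lyz1, Reg4, Spink4 and Fcgbp each had a ratio above 1 in the highest tertile. Of the 10 lower goblet genes, 2 were below the zero cells in all 3 tertiles. The part of depth in these lower values was not tested.

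**Figure D4:**
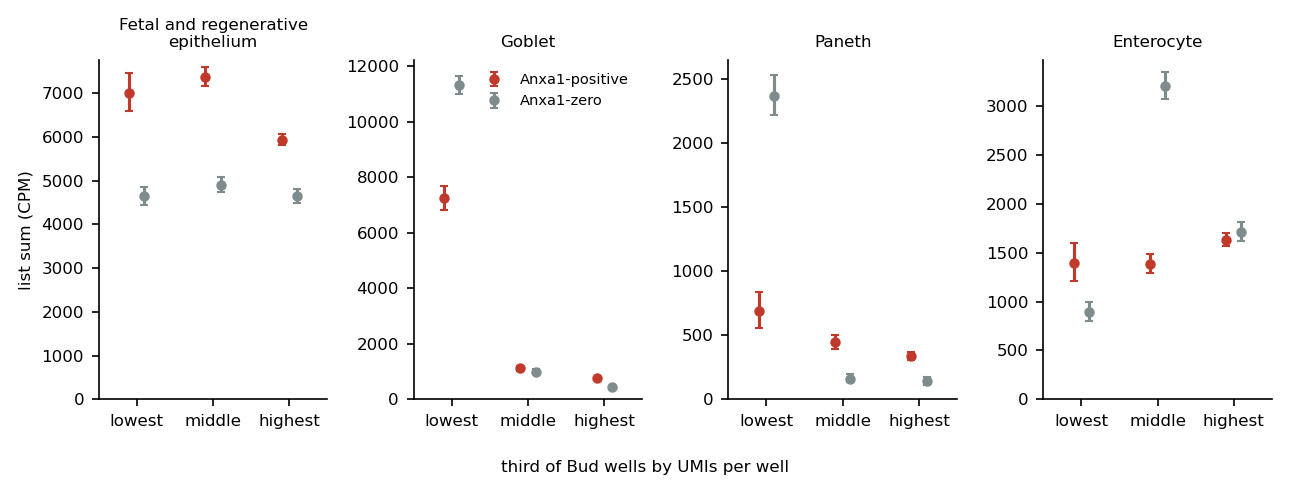
Summed CPM of the genes of 4 lists (vertical axes, from 0) in Anxa1-positive (left of each pair) and Anxa1-zero Bud wells, by tertile of UMIs per well (horizontal axes), with exact Poisson 95% intervals. The fetal and regenerative list is higher in positive wells of every tertile, while goblet and Paneth lists are lower only in positive wells of the lowest tertile, where the goblet sum was 7233 CPM, against 11319 CPM in zero wells.

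Kcnq1ot1 and 3 RNAs lower beside it also changed direction with depth. Kcnq1ot1 stood at 3266 CPM in positive and 6873 CPM in zero cells, and 8.13% of positive and 12.2% of zero cells exceeded 2% of UMIs. Mid1, Grk4 and Vmn2r55 were lower with it, at ratios of 0.161 to 0.446. Within the middle tertile all 4 had a log2 ratio above 0, from 0.77 (Grk4) to 0.91 (Vmn2r55). Without the Kcnq1ot1-rich wells 267 genes were higher and 248 lower, and the fetal and regenerative list median was 0.66.

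Defining markers of immune, mesenchymal, endothelial and tuft cells were at or near 0. Of 14 immune genes 6 had no UMI in Bud, namely Ptprc, Cd3e, Cd74, Lyz2, Csf1r and Nkg7, and the list summed to 11.95 CPM in positive and 24.7 CPM in zero cells, with 0 to 325 and 0 to 633 CPM per well. Mesenchymal genes summed to 3.41 and 5.17 CPM in positive and zero cells, with Col1a1, Col1a2, Lum, Thy1 and Twist1 at 0. Endothelial genes summed to 20.9 and 26.4 CPM, with Cdh5, Emcn, Plvap and Eng at 0. Tuft genes summed to 10.7 CPM in positive and 5.75 CPM in zero cells, with Dclk1 at 0, and 1 positive cell held 10 of the 35 tuft UMIs. Gastric genes were not near 0: they summed to 245 CPM in positive and 188 CPM in zero cells, in 91.1% and 78.4% of them. Of 5 measured gastric genes Gkn1 and Anxa10 were higher (3.19% over all genes), and Muc5ac, Muc6, Gkn2 and Cldn18 were at 0. Msln was at 0 in both classes, and Tff1 had 11 UMIs in 3 positive cells and none in zero cells.

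Levels in the other libraries set the size of these differences. S100a6 stood at 462 CPM in Bud positive cells, 269 in Bud zero cells, 2808 in Cys, 137 in het, 2460 in fetal and 98.6 in WT. Both Bud classes thus lay above het and WT and far below Cys and fetal. Anxa3 was at 48.2 and 16.1 CPM in Bud positive and zero cells, 421 in Cys, 27.9 in het, 1053 in fetal and 5.85 in WT, and Il33 at 29.0 and 12.1 CPM, 1535, 1.17, 240 and 1.78 CPM in the same order. Clu stood at 13.2 CPM in Bud positive cells and 10.2 CPM in WT, against 3404 in Cys and 4160 in fetal. Fabp5 was high in Cys but not in fetal, at 137 and 101 CPM in Bud positive and zero cells and 584 in Cys, against 15.7 in het, 12.97 in fetal and 45.0 in WT. Lgr5 stood at 321 CPM in Bud positive cells, near 299 in het and 279 in WT, against 12.7 in Cys and 102 in fetal.

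Lists drawn from those libraries were read in the same way. Of the 50 genes highest in Cys over WT, 23 were measured in Bud, 11 of them were higher in positive cells (3.19% over all genes) and none lower, with a median log2 ratio of 0.49, and 8 of the 50 had no UMI in Bud. Their sum was 1973 CPM in Bud positive cells and 1315 CPM in Bud zero cells, 28580 in Cys and 683 in WT. Of the 50 genes highest in fetal over WT, 13 were measured and 8 were higher (3.19% over all genes), with none lower. Their sum was 846 CPM in Bud positive and 503 CPM in Bud zero cells, 32858 in fetal and 266 in WT. In both lists rare genes could pass the minimum of 20 UMIs through the positive cells alone. With a minimum of 1 UMI the median was 0.32 for the Cys genes and 0.08 for the fetal genes, in place of 0.49 and 0.66. The 50 genes lowest in Cys against WT included 7 that were lower in positive cells (2.78% over all genes) and none that was higher, of 48 measured. Both lists of high genes share S100a6, Ly6a, Anxa3, Il33 and Ctgf with each other among their higher members, so they are not separate counts.

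The same split by Anxa1 was then made in libraries that the rule had not used. In het, 49 of the 291 measured Bud-higher genes were also higher in Anxa1-positive cells (16.8%), against 6.13% of all genes. In WT 25 of 281 were (8.90%), against 3.53%, and in Cys 6 of 290 (2.07%), against 1.85%. Bud-lower genes were lower again for 36 of 251 in het (14.3%, against 2.86% of all genes), 46 of 240 in WT (19.2%, against 3.21%) and 28 of 195 in Cys (14.4%, against 1.76%). Opposite calls were fewer or as many. Lower were 6 Bud-higher genes in each of Cys (2.07%, against 1.76% of all genes), het (2.06%, against 2.86%) and WT (2.14%, against 3.21%). Of the Bud-lower genes, 0, 15 and 3 were higher in Cys, het and WT (0%, 5.98% and 1.25%, against 1.85%, 6.13% and 3.53%). In Cys the zero cells also differed in Kcnq1ot1, with 1001 CPM in positive and 14084 CPM in zero cells and 3 of 306 positive and 2 of 10 zero wells over 2%, and the 28 included Kcnq1ot1, Grk4, Vmn2r55 and Mid1 but none of Muc2, Tff3 or Lyz1. Anxa2, Anxa3, Anxa5, Il1rn, Ly6a, Lgals3, Plaur, Slc2a1 and Ero1l were among those higher in het, and S100a6, Areg, Cenpf and Nek2 among those in WT. The classes there were small: 21 positive against 261 zero cells in het, 22 against 229 in WT, and 306 against 10 in Cys, where the 10 zero cells had a median of 3550.5 UMIs. In het 1 positive cell held 20 of the 49 Anxa1 UMIs, and 5 of the 21 positive cells held at least 5 UMIs of tuft genes. The fetal library had no zero cell.

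**Figure D5:**
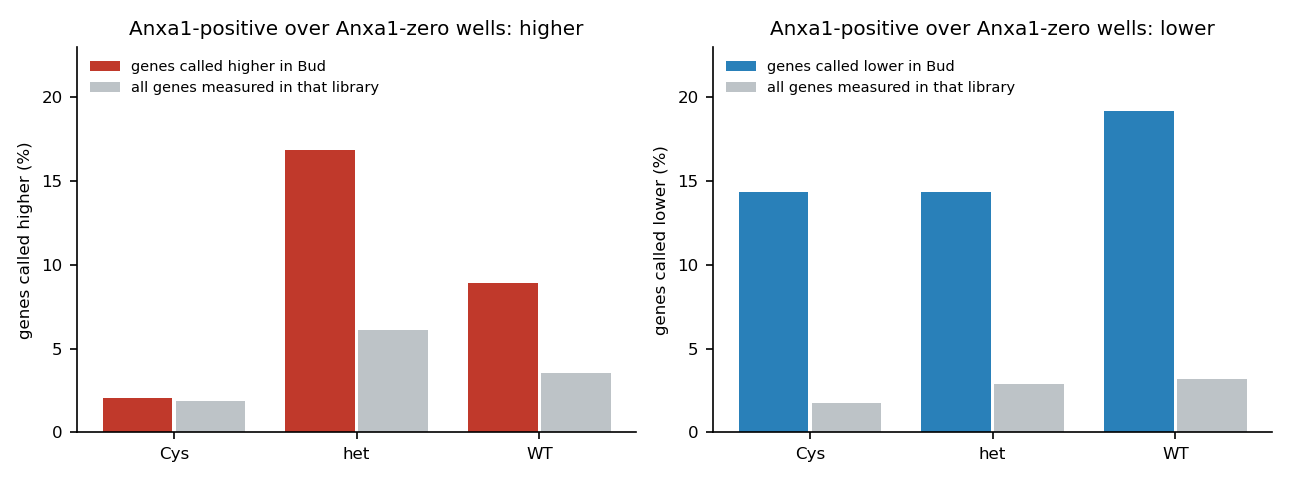
Percent of the genes called higher (left) or lower (right) in Bud that were called in the same direction between Anxa1-positive and Anxa1-zero wells of the Cys, het and WT libraries (coloured bars), beside the percent of all genes measured in that library (grey bars). The Bud-higher genes exceed the background in het (16.8% against 6.13%) and WT (8.90% against 3.53%), but not in Cys (2.07% against 1.85%).

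A test over these 3 libraries as replicates, with UMIs summed per library and class and the library as a block, gave edgeR quasi-likelihood p-values adjusted over 10336 genes. At an adjusted p under 0.05, 55 genes were higher (0.532%) and 42 lower (0.406%) in Anxa1-positive cells, and DESeq2 gave 4 and 4. Of the 310 Bud-higher genes, 5 were among the 55 (1.61% of the Bud genes and 9.09% of the 55), namely Areg, Anxa3, Il33, Rab27b and 2210407C18Rik. In the opposite direction, 3 of the 270 Bud-lower genes were among the 55 (1.11% and 5.45%), namely Ano7, Hepacam2 and Selm. None of the Bud-higher genes was among the 42. Only 32 of the 55 were measured in Bud, so the others could not overlap. Areg had a log2 fold change of 2.17 ± 0.32 (SE, edgeR adjusted p = 2.59e-09), with 163, 119 and 51.3 CPM in positive and 52.1, 23.2 and 12.2 CPM in zero cells of Cys, het and WT. Anxa3 had 1.74 ± 0.35 (SE, edgeR adjusted p = 0.000112), with 423, 89.3 and 9.77 CPM in positive and 130, 22.7 and 5.39 CPM in zero cells. Il33 had 1.82 ± 0.45 (SE, edgeR adjusted p = 0.00709), but in het and WT it rested on 2 UMIs in positive cells each. Areg rested on 2 UMIs in the Cys zero cells, and its 40 UMIs in het positive cells came from 4 wells. Anxa3 rested on 5 UMIs in the Cys zero cells and on 4 UMIs in the WT positive cells. Areg, Anxa3 and Il33 were each higher in the positive cells of all 3 libraries.

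The named markers did not pass this test. S100a6 had a log2 fold change of 0.55 ± 0.26 (SE, edgeR adjusted p = 0.806), although it was higher in the positive cells of all 3 libraries, at 2812, 197 and 142 CPM against 2213, 132 and 93.6 CPM in Cys, het and WT. Lgals3 (0.44 ± 0.31) and Fabp5 (0.39 ± 0.30) had an edgeR adjusted p of 1, as had Anxa2 (0.45 ± 0.25). Ly6a (1.21 ± 0.39) had 0.145, and Il1rn (1.53 ± 0.66) had 0.671. On the lower side, 29 of the 270 Bud-lower genes were among the 42 (10.7% and 69.0%), among them Muc2, Tff3, Reg4, Neurog3 and Kcnq1ot1. Fcgbp, a mucus protein, had -2.94 ± 0.31 (SE, edgeR adjusted p = 3.96e-18), and Lyz1 -3.06 ± 0.42 (SE, edgeR adjusted p = 1.42e-10). Fcgbp stood at 20.8 and 103 CPM in positive and 689 and 476 CPM in zero cells of het and WT. In Cys the zero cells held 0 UMIs of Fcgbp, Lyz1, Muc2, Neurog3 and Reg4, and the positive cells 89, 13, 31, 2 and 0. Kcnq1ot1 stood at 1001, 3299 and 828 CPM in positive and 14084, 3700 and 1984 CPM in zero cells of Cys, het and WT. Tuft genes stood at 1772 CPM in positive and 27.3 CPM in zero cells of het, and without wells of at least 5 tuft UMIs, an alternative added after seeing the data, 7 genes were higher and 37 lower. The count of 97 genes was 18 without het, 168 without Cys and 36 without WT.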

How the data were processed

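Cells sorted into 384-well plates were sequenced by SORT-seq, a form of CEL-Seq2. The authors deposited 3 tables per plate: UMI counts and read counts per gene and well, and estimated counts of transcripts, which are not whole numbers. Build GRCm38 and the tools Seurat 4.1.0, featureCounts 1.5.2 and STAR 2.6.1 are listed in the submitters' processing notes, without their settings. How strand and multiply matching reads were treated is not given there.

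ERCC spike-in rows were dropped and wells under 3000 UMIs left out. UMIs were summed per class and scaled to CPM. Genes with at least 20 UMIs were called at a ratio of 1.5 with an exact conditional binomial 95% interval off 1. Shares have exact Clopper-Pearson intervals and levels exact Poisson intervals. No doublet caller was run, and an alternative left out the 5% of wells with most UMIs. The other libraries were tested with edgeR 4.0.16 (TMM, quasi-likelihood, library as block, Benjamini-Hochberg) in R 4.3.3, with DESeq2 1.42.0 as an alternative, where each library is 1 replicate whose history the labels do not give. Python 3.11.15, numpy 2.4.6, pandas 2.3.3, scipy 1.17.1 and matplotlib 3.10.9 did the rest, and the calls were tested on simulated data.

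Named genes were the 12 largest and 12 smallest log2 ratios among called genes with at least 50 UMIs, seen in at least 20% of the wells of the higher class and with no well holding most UMIs, up to 3 members per list of at least 20 CPM, and a fixed set of markers, and a gene that met the rule is not reported here. Other genes named to complete a list were chosen after their values were seen. The members and lists were chosen with earlier results of these data known. The alternatives varied the well minimum, the member rule, thinning, weighting, scaling, gene minimum, wells left out and depth tertile.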

Additional observations from a re-analysis of the deposited data

Results flagged for a closer look

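For 6 of the genes named here the ratio of Anxa1-positive over Anxa1-zero cells lay on opposite sides of 1 in Bud and in another library, each with a counting interval off 1. The difference between libraries was not tested. Nuak2 had a ratio of 0.573 in Bud and 2.08 in het (1.06 to 3.78), from 13 UMIs in positive and 73 UMIs in zero cells of het. Egr1 had a ratio of 1.51 in Bud and 0.479 in het (0.276 to 0.776), at 50.6 CPM in positive and 106 CPM in zero cells of het. Sc5d, an enzyme of cholesterol synthesis, had a ratio of 1.503 in Bud and 0.643 in WT (0.414 to 0.959). Lgals3 had a ratio of 1.65 in Bud and 0.506 in Cys (0.300 to 0.929), where the zero cells held 14 UMIs. In Cys also, Egln3 had a ratio of 1.55 in Bud and 0.545 there (0.347 to 0.907), and Hspa1b, a heat shock protein, had 3.81 in Bud and 0.217 there (0.0907 to 0.679), from 19 and 5 UMIs in the zero cells.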

How the results depend on the processing

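Of 1819 values of 107 named genes over all alternatives, 1469 kept their direction and size, 290 moved in size and 60 changed direction; of 591 list medians 520 stayed and 71 moved. The fetal and regenerative median ran from 0.42 to 0.87. The share of Anxa1-positive cells was 26.7% with at least 2 UMIs, 17.9% with members called after thinning, 26.1% in the lowest and 69.0% in the highest depth tertile. Genes lower numbered 152 with wells thinned, 427 with equal weight per well and 156 in the lowest tertile, and genes higher 570 with equal weight. Of the 310 higher genes 47 were called again in thinned wells. The 97 genes of the edgeR test became 8 with DESeq2, 163 with no filter, 42 with thinning, 44 without tuft-rich wells (added after seeing the data) and 0 without the library block (edgeR, 184 at an unadjusted p under 0.05). Leaving out 1 library gave 18 (without het) to 168 (without Cys). The causes were not tested. With wells of at least 6000 UMIs, log2 ratios changed sign for Itln1 0.21 and Ghrl 2.01. With members called after thinning, log2 ratios changed sign for Grk4 0.084, Vmn2r55 0.26, Kcnq1ot1 0.22, Cenpf -0.11, Cdk1 -0.37, Ccl20 -0.72, Nuak2 0.028, Etv5 -0.46, Egr1 -0.10 and S100g -0.20. With wells thinned to 3000 UMIs, log2 ratios changed sign for Etv5 -0.011 and Reg3g -0.33. Within the lowest depth tertile, log2 ratios changed sign for Cenpf -0.88, Cdk1 -0.0058, Sis 1.12, Ghrl 0.11, Areg -0.86, Etv5 -0.60 and Egr1 -0.60. Within the middle depth tertile, log2 ratios changed sign for Reg4 0.92, Mid1 0.85, Lyz1 1.60, Grk4 0.77, Fcgbp 0.87, Vmn2r55 0.91, Spink4 1.87, Kcnq1ot1 0.79, Rnase1 0.75, Ang4 0.040, Itln1 0.46, Muc2 0.48, Pde4d -0.14, Reg3g -0.037 and Fkbp5 -0.030. Within the highest depth tertile, log2 ratios changed sign for Reg4 0.47, Lyz1 0.65, Tff3 1.29, Grk4 0.64, Fcgbp 1.95, Vmn2r55 0.50, Spink4 0.84, Kcnq1ot1 0.53, Rnase1 0.20, Cbfa2t3 0.31, Reg1 0.61, Sis 0.29, Ang4 0.32, Itln1 1.72, Muc2 0.59, Ghrl 0.56, Neurog3 0.92, Dll1 0.15, Foxa2 0.27 and Klf4 0.039. Without the highest well of each gene, log2 ratios changed sign for Reg1 0.15, Itln1 0.27, Ghrl 1.81 and S100g -0.0023. Leaving out the highest well of each gene was added after seeing the data. Libraries could not be paired across groups because each group is 1 library and the labels give no replicate numbers. The edgeR test did pair the classes within each library, through the library block. Depth limits detection: of 123 positive cells, 47 kept an Anxa1 UMI at 3000 UMIs.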

Other observations

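Tuft cell genes had more UMIs in Anxa1-positive cells of het and WT and gave few UMIs in Bud. These UMIs came largely from a few cells in het and from 1 cell in WT. Their sum was 10.7 CPM in Anxa1-positive and 5.75 CPM in Anxa1-zero cells of Bud, 1772 and 27.3 CPM in those of het, and 225 and 3.69 CPM in those of WT. In Cys it was 97.7 CPM in positive and 26.0 CPM in zero cells, and 18 of 306 positive and 0 of 10 zero cells held at least 5 tuft UMIs. At least 5 tuft UMIs were found in 1 of 123 positive and 0 of 139 zero cells of Bud, in 5 of 21 positive and 2 of 261 zero cells of het, and in 1 of 22 positive and 1 of 229 zero cells of WT. A single cell held 282 of the 595 tuft UMIs of the het positive cells, and another 91 of the 92 of the WT positive cells. Over Cys, het and WT together, 6 of 6 tuft genes tested were among the 55 that edgeR called higher (0.532% of the 10336 genes tested). The list holds 11 tuft genes, and the others were not tested. A tuft gene could pass the filter on low counts through the positive cells alone.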
